A study of Mus musculus with 17 samples.

Results

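Plasmin, the metalloproteases of the extracellular matrix and the inhibitors of both were followed through 48 h of islet culture by way of 9 genes: Plat, Plau, Plaur, Tfpi2, Mmp2, Mmp14, Adamts1, Timp1 and Timp3. A probe set, the group of probes that reports 1 transcript on the array, was taken for 1 of these genes where the platform annotation gave that symbol and no other. This gave 17 probe sets of the 45037 tested, and 9 of the 18193 genes named. Each gene was read from its probe set with the highest mean over all arrays, and the other probe sets are described beside it.

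The islets came from C57BL/6 mice and had no treatment other than culture at 37 °C and 5% CO2. The medium was F12K, to which 10% fetal bovine serum had been added. Islets of 4 mice were pooled into a batch, and portions of each batch were harvested at 0, 24 or 48 h. The arrays used were 5 at 0 h, 6 at 24 h and 6 at 48 h, and 5 batches had all times, since batch 5 lacked an array at 0 h among those analysed here. All groups carried the same isolation from the pancreas, and the sex and age of the mice are not given in the sources used here. Hormone genes were read at high levels, as the islet label has it. Ins2 (insulin) had mean log2 levels of 13.76, 13.73 and 13.69 at the 3 times, and Gcg (glucagon) of 12.81, 12.77 and 12.66. The highest Ins2 value, 13.81 at 0 h, was also the highest of the whole table, so a change in Ins2 may not show. Sst (somatostatin) differed from 0 h by -1.27 at 24 h (adjusted p = 0.00272) and -1.31 at 48 h (adjusted p = 0.00249), and Ppy (pancreatic polypeptide) by -1.47 (adjusted p = 0.0116) and -1.14 (adjusted p = 0.0552).

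Levels are log2 units after RMA, so that a difference of 1 is a doubling. Array medians lay between 3.47 and 3.57. A value under the median of the whole table, 3.52, was taken as not separated from background, since no detection call was used. The mean over the 17 arrays was above that median for 7 of the 9 genes and below it for Plau and Mmp2. Replicate arrays are separate pools of mice, and their number limits the precision.

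Plasmin is a serine protease that digests fibrin and matrix proteins. It is cut from circulating plasminogen by the tissue-type activator encoded by Plat or by urokinase, encoded by Plau, which is held at the cell surface by its receptor, the product of Plaur. Plasmin can in turn activate several matrix metalloproteases. These proteases are restrained by the TIMP family, which bind their catalytic sites, while Tfpi2 encodes a Kunitz-type inhibitor of plasmin and related serine proteases. In the islet, the basement membrane that these enzymes can digest surrounds the capillaries and the islet itself.

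The promoter sequences shown are those of the members with the largest measured rise (Tfpi2) and the largest measured fall (Timp3), and of a pair of genes that rose at 24 h with different motif content (Plaur and Adamts1). Each is the 250 bases before an annotated start, 5′ to 3′ on the strand of the gene, from RefSeq on GRCm38.p6. Capitals mark the letters of an AP-1 site, TGANTCA, and windows without capitals hold none. Tfpi2 had 3 annotated starts, and the window shown is that of the most downstream one, chr6:3968376-3968625 on the minus strand. Plaur lies at chr7:24462233-24462482 on the plus strand, Adamts1 at chr16:85803114-85803363 on the minus strand and Timp3 at chr10:86300162-86300411 on the plus strand.
Tfpi2: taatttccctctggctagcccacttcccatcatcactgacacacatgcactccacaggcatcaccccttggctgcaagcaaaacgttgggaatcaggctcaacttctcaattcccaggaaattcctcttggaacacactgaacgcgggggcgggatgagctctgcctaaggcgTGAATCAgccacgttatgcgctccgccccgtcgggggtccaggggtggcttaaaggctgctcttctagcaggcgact
Plaur: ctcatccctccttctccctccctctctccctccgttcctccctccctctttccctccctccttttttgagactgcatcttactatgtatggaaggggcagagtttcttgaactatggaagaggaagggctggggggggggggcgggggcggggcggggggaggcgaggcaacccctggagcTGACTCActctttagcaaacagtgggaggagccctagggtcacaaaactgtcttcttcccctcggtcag
Adamts1: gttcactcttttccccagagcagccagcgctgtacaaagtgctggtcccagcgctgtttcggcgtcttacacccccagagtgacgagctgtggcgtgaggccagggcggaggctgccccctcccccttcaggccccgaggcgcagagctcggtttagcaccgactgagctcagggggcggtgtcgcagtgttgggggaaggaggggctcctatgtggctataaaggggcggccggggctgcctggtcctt
Timp3: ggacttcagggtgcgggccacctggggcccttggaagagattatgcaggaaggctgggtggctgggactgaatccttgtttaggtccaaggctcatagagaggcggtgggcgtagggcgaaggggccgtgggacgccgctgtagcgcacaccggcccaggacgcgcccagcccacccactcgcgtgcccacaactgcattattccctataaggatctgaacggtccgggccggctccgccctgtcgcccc

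The Tfpi2 match began at position -77 and the Plaur match at position -69 relative to the start. The same letters stood in 6.75% of 32851 RefSeq promoter windows of this length, and in neither of the other Tfpi2 windows. The letters TATAAA of a TATA box, found in 12.4% of all windows, stood once in the Adamts1 window. GC box letters, GGGCGG, were in 32.7% of all windows, with 3 matches each in the Plaur and Adamts1 windows, 2 in that of Tfpi2 and 1 in that of Timp3. The Timp3 window held 18 CpG dinucleotides against a median of 6 over all windows, and the Adamts1 window held 15. Mmp14 had 2 and Timp1 had 1 GC box match, without AP-1 or TATA box letters. The letters of an NF-kappaB site, found in 1.41% of all windows, and those of a CRE (TGACGTCA, in 1.55%), were in none of the members' windows. Both strands were searched and overlapping matches were counted separately. A match describes these letters and is not a binding site. Windows were found for 6 of the 9 genes, which leaves Plat, Plau and Mmp2 named only.

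The first comparison asked how the 9 genes differed after 24 h of culture from freshly isolated islets. Tfpi2, Plat, Adamts1 and Plaur rose and Timp3 fell, and the other 4 genes did not pass the test, limma with Benjamini-Hochberg adjustment over all probe sets at an adjusted p under 0.05. Of all 18193 genes, 12.1% passed, 5.44% higher and 6.66% lower. The 4 that rose or fell at least 2-fold were Tfpi2, Plat, Adamts1 and Timp3, a class that held 1.76% of all genes. The arrays of the 2 times did not overlap for 6 members, against 8.78% of genes. The median log2 difference was 0.50 over the members and -0.01 over all genes. Counted by probe set, 7 of the 17 passed, against 8.58% of all probe sets. The members were chosen with earlier results of these data known, so these shares are no test of the list.

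At 48 h against 0 h, Tfpi2, Plat, Adamts1, Mmp14 and Timp1 were higher and Timp3 was lower, and Plau, Plaur and Mmp2 did not pass. The background was 11.7% of genes, of which 6.45% were higher and 5.27% lower. Past 2-fold were Tfpi2, Plat and Timp3, beside 1.5% of all genes. The arrays of the 2 times did not overlap for 5 members, against 9.17% of genes. The median difference was 0.49 over the members and -0.02 over all genes. Of the 17 probe sets, 8 passed, against 8.47% of all. Both comparisons share the 0 h arrays and the same choice of members, so these shares are no test of the list either.

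Between 24 and 48 h, 0 of the 9 members passed in limma, with 4 at an unadjusted p under 0.05 (Plaur, Tfpi2, Adamts1 and Timp1). With limma's array weights 1 member passed (Plaur), and without 48 h replicate 3 Tfpi2 passed. With arrays centred on the islet endocrine markers 3 members passed as lower at 48 h (Plaur, Tfpi2 and Adamts1). No other tool was run. Here 0.759% of all genes passed, 0.429% higher and 0.33% lower, 0.11% at least 2-fold, and the arrays did not overlap for 1.57% of genes but for 0 members. Over probe sets the background was 0.444%, with 0 of the 17 passing.

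**Figure D1:**
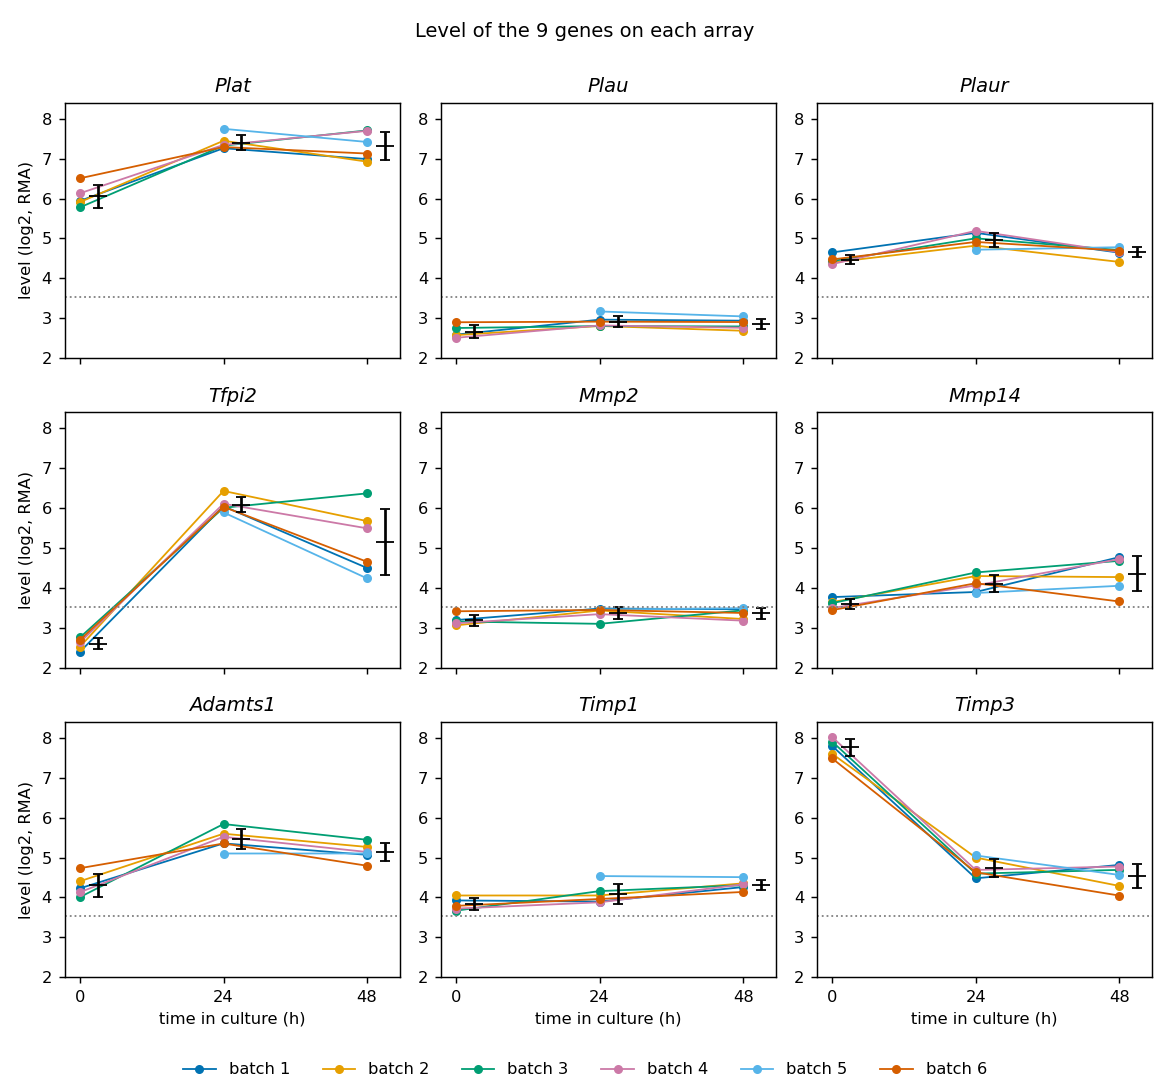
Level of each of the 9 genes on the 17 arrays (log2, RMA) against hours in culture, from the probe set that represents the gene. Points are arrays, coloured lines join the portions of 1 batch, black bars are the mean ± SD at each time (n = 5, 6 and 6), and the dotted line is the table's median of 3.52. Tfpi2 goes from under that line to between 5.89 and 6.43 at 24 h, Timp3 drops from above 7.48 to below 5.06, and Plau and Mmp2 stay under the line.

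Of the plasminogen activator genes, Plat was read above background and rose in culture. Its 0 h arrays stood at 5.94, 5.91, 5.78, 6.13 and 6.51. At 24 h the lowest, median and highest arrays were 7.26, 7.34 and 7.75, and at 48 h they were 6.93, 7.27 and 7.71. Every later array was above every 0 h array, and the 24 and 48 h arrays overlapped. The rise was 2.55-fold at 24 h (log2 difference 1.35 ± 0.15 SE, adjusted p = 1.02e-05) and 2.39-fold at 48 h (1.26 ± 0.15, adjusted p = 2.99e-05). It was present in 5 of 5 batches, by 0.78 to 1.55 at 24 h and by 0.62 to 1.93 at 48 h. The 48 h mean differed from the 24 h mean by -0.09 (adjusted p = 0.867). The second Plat probe set stayed under the table's median on all 17 arrays and did not pass, with differences of 0.05 and -0.07 from 0 h.

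Plau, the urokinase gene, was not separated from background. Its 0 h arrays were 2.59, 2.57, 2.75, 2.51 and 2.90, while the 24 h arrays spanned 2.80 to 3.17 and the 48 h arrays 2.68 to 3.04. All 17 values of both its probe sets were under the table's median, and the groups overlapped. The differences from 0 h, 0.25 (adjusted p = 0.101) and 0.19 (adjusted p = 0.225), did not pass, and no fold can be read from them. Without 0 h replicate 6 the 24 h difference passed at 0.31 (adjusted p = 0.0420), still under the table's median.

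The receptor gene Plaur was raised at 24 h. The 0 h arrays stood at 4.65, 4.40, 4.43, 4.36 and 4.47, and those at 24 h had a lowest value of 4.72, a median of 4.96 and a highest value of 5.19, so that the groups did not overlap. That rise was 1.42-fold (0.50 ± 0.09 SE, adjusted p = 0.00102), with all 5 batches between 0.42 and 0.83. At 48 h the arrays ran from 4.41 through a median of 4.68 to 4.78, and overlapped those at 0 h. The 48 h difference from 0 h was 0.19 (adjusted p = 0.237). Of the 6 batches, 5 were lower at 48 than at 24 h, a difference of -0.31 that did not pass (adjusted p = 0.124) but did with array weights (-0.38, adjusted p = 0.0473).

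Tfpi2, the Kunitz-type inhibitor of plasmin, was under the table's median on all 5 arrays at 0 h and above it on all 6 at 24 h. The 0 h arrays read 2.40, 2.52, 2.76, 2.63 and 2.70, all under the table's median. At 24 h the lowest, median and highest were 5.89, 6.04 and 6.43, a narrow band far above every 0 h array. At 48 h they were 4.24, 5.07 and 6.37, still clear of the 0 h arrays but spread far more widely. The measured log2 difference was 3.49 ± 0.27 SE at 24 h (adjusted p = 1.30e-07) and 2.55 ± 0.27 at 48 h (adjusted p = 6.42e-06), higher in 5 of 5 batches each time. With the 0 h arrays set to the table's median, Tfpi2 was at least 5.91-fold higher at 24 h and at least 3.10-fold higher at 48 h.

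The 48 h spread of Tfpi2 had an SD of 0.82 (n = 6), against 0.18 (n = 6) at 24 h. By batch, the 48 h values were 4.50, 5.67, 6.37, 5.49, 4.24 and 4.65 for batches 1 to 6. Batch 3 was the one whose level was higher at 48 than at 24 h, by 0.36, while the other 5 were lower by up to 1.65 in log2 units. The difference between the times was -0.93 ± 0.26 SE and did not pass (adjusted p = 0.136). Without 48 h replicate 3 it was -1.18 and passed (adjusted p = 0.0144).

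The metalloproteases gave smaller differences. Mmp2, gelatinase A, which digests basement membrane collagen, read 3.19, 3.06, 3.16, 3.11 and 3.41 at 0 h, 3.10 to 3.48 at 24 h and 3.18 to 3.49 at 48 h. Both its probe sets were under the table's median on all arrays. The differences of 0.19 (adjusted p = 0.223) and 0.17 (adjusted p = 0.258) did not pass.

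Mmp14 encodes a membrane-bound metalloprotease that digests collagen at the cell surface and activates the Mmp2 proenzyme. At 0 h it stood at 3.77, 3.64, 3.62, 3.49 and 3.44, with 2 of 5 arrays under the table's median. The lowest, median and highest arrays were 3.87, 4.09 and 4.39 at 24 h and 3.66, 4.47 and 4.77 at 48 h. The 24 h arrays were all above those at 0 h, whereas at 48 h batch 6 fell among the 0 h values. The 24 h difference, 0.51 ± 0.17 SE, did not pass (adjusted p = 0.0664), but it did in 6 of 31 alternatives. Among these were a block for the batch (0.57, adjusted p = 0.0317) and a fit of the 0 and 24 h arrays alone (0.51, adjusted p = 0.00759). The 48 h difference was 0.77 ± 0.17 (adjusted p = 0.00602). With the low 0 h arrays set to the table's median, the probe set read here was at least 1.67-fold higher.

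The 3 probe sets of Mmp14 disagreed, and the values above are those of 1448383_at. It was chosen by its mean over all arrays, which includes the later times, when it was higher. At 0 h its mean was 3.59, under the 3.90 of 1440920_at, so the 48 h call depends on that choice. Probe set 1440920_at was above the table's median on all but 1 array and differed from 0 h by -0.12 at 24 h and by -0.35 at 48 h (adjusted p = 0.0551). Probe set 1416572_at was under that median on all 24 and 48 h arrays and 4 of 5 at 0 h, with differences of -0.03 and -0.07. Taking the mean of the 3 ended the 48 h call (0.11, adjusted p = 0.481).

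Adamts1, a secreted protease with thrombospondin repeats that cuts the proteoglycans aggrecan and versican, rose at both times. Its 0 h values were 4.23, 4.40, 4.01, 4.13 and 4.73. At 24 h the arrays ran from 5.10 through a median of 5.44 to 5.84, and at 48 h from 4.79 through 5.12 to 5.44, in both cases above every 0 h array. The rise was 2.23-fold at 24 h (1.16 ± 0.14 SE, adjusted p = 1.72e-05) and 1.78-fold at 48 h (0.83 ± 0.14, adjusted p = 0.000696). All 5 batches were higher, by 0.62 to 1.83 at 24 h and by 0.06 to 1.44 at 48 h, with batch 6 the smallest each time. The later times differed by -0.33 (adjusted p = 0.353).

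**Figure D2:**
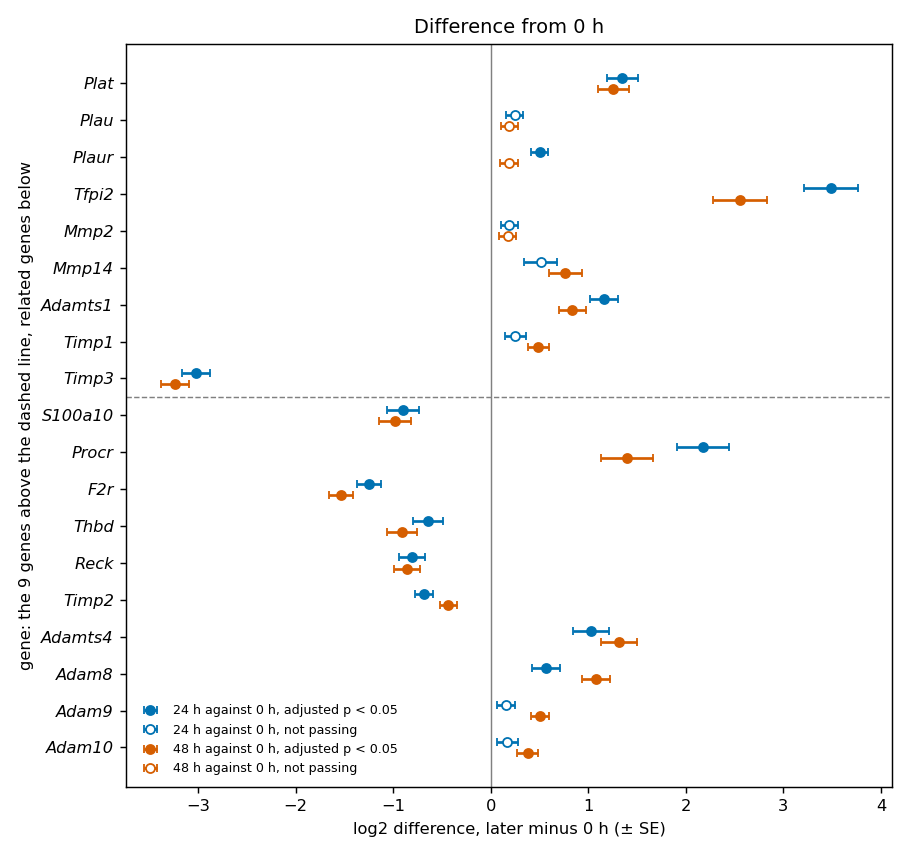
Log2 difference from 0 h of the 9 genes (above the dashed line) and of related genes that the text names (below it). Error bars are limma's SE, and F2rl3, Mmp12 and Mmp13 are not drawn. Blue is 24 h and orange 48 h against 0 h, and filled points have an adjusted p under 0.05. Tfpi2 and Timp3 lie farthest from 0 on either side. Of the inhibitor genes drawn, Timp3, Timp2 and Reck lie left of 0, and Tfpi2 and Timp1 lie right of it.

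At 48 h the TIMP genes differed from 0 h in opposite directions, Timp1 being higher and Timp3 lower. Timp1, an inhibitor of most soluble matrix metalloproteases, read 3.92, 4.05, 3.67, 3.72 and 3.79 at 0 h. At 24 h the lowest, median and highest were 3.88, 4.00 and 4.53, which overlapped the 0 h arrays, and at 48 h they were 4.14, 4.32 and 4.51, all above them. The 24 h difference of 0.25 did not pass (adjusted p = 0.193). At 48 h Timp1 was 1.40-fold higher (0.49 ± 0.11 SE, adjusted p = 0.00684), in 5 of 5 batches by 0.30 to 0.64.

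Timp3, which binds the matrix and also inhibits ADAM and ADAMTS proteases, fell at both times. The 0 h arrays were 7.80, 7.60, 7.91, 8.02 and 7.48. At 24 h the lowest, median and highest were 4.48, 4.66 and 5.05, and at 48 h they were 4.05, 4.63 and 4.81. No later array came within 2 log2 units of a 0 h array. Timp3 was 8.12-fold lower at 24 h (-3.02 ± 0.14 SE, adjusted p = 1.43e-10) and 9.40-fold lower at 48 h (-3.23 ± 0.14, adjusted p = 4.97e-11), in 5 of 5 batches each. Within batches the difference lay between -3.33 and -2.60 at 24 h and between -3.44 and -2.98 at 48 h. Between the later times the difference was -0.21 and did not pass (adjusted p = 0.592).

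The 4 probe sets of Timp3 differed in size, and all 4 read lower at the later times. Probe set 1449335_at went from between 7.05 and 7.48 at 0 h to between 3.73 and 4.79 at 24 h, a difference of -2.78 (adjusted p = 6.35e-09), and -2.72 at 48 h (adjusted p = 7.69e-09). Probe set 1449334_at, at a mean of 4.87 in fresh islets, fell by 0.74 (adjusted p = 0.00188) and 0.83 (adjusted p = 0.000762) on the log2 scale. Probe set 1419088_at lay under the table's median throughout and did not pass (-0.17 and -0.21). Timp3 lies within the gene Syn3, and Timp1 within Syn1, in the RefSeq annotation. Syn3, a synapsin gene, had mean levels of 4.51, 4.58 and 4.27 at the 3 times and differed by 0.07 at 24 h (adjusted p = 0.808). Syn1 differed by 0.21 (adjusted p = 0.448).

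**Figure D3:**
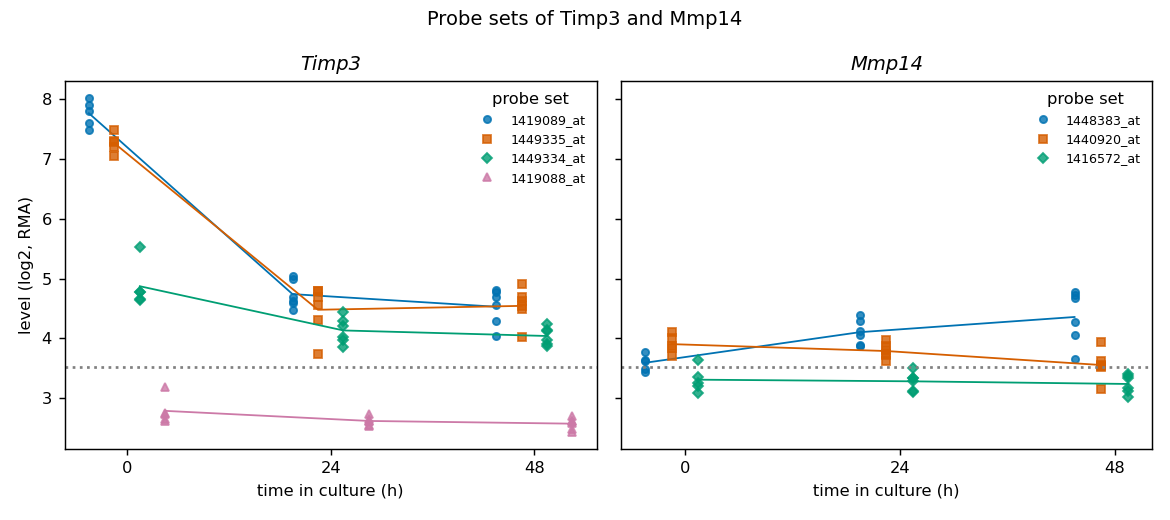
Level (log2, RMA) of every probe set of Timp3 and Mmp14 against hours in culture, offset sideways by probe set. Points are arrays, lines join the means of the 3 times, and the dotted line is the table's median of 3.52. The Timp3 probe sets above that line all drop between 0 and 24 h, while of the Mmp14 probe sets 1448383_at rises and 1440920_at does not.

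By the study's own rule of selection, a mean linear signal past 4-fold of that at 0 h, which was applied without a test, Tfpi2 and Timp3 qualified among the 9. The linear mean of Tfpi2 was 11.2 times its 0 h value at 24 h and 6.72 times at 48 h, ratios that rest on 0 h values under the table's median. For Timp3 the 0 h mean was 8.11 times that at 24 h and 9.32 times that at 48 h. The next largest ratio was that of Plat, 2.53 at 24 h and 2.41 at 48 h.

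Several cell types of the preparation changed their marker levels over the same hours. In whole islets, fewer cells of a type and less RNA per cell cannot be told apart. The mean level of 14 endothelial markers was 5.49 to 5.81 on the 0 h arrays, 4.96 to 5.13 at 24 h and 4.48 to 4.89 at 48 h, and the 3 ranges did not overlap (two-sided exact permutation p = 0.00433 for each later time against 0 h, 0.0144 adjusted over 30 tests). Of these markers 6 fell and 1 (Cldn5) rose at 24 h, and 9 fell at 48 h. The largest falls were in Ptprb (-2.34 and -2.82), Plvap (-1.94 and -2.63) and Flt1 (-1.44 and -1.90), and the defining markers Pecam1 and Cdh5 had mean levels under the table's median at all times. Over the same hours Timp3 and, among the related genes, Thbd and F2r fell, while Procr, which encodes the endothelial protein C receptor, rose by 2.18 at 24 h. Their part in these results was not tested.

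The mean of 13 markers of pericytes, stellate cells and fibroblasts lay between 4.57 and 4.83 at 0 h, between 3.99 and 4.15 at 24 h (exact permutation p = 0.00433, adjusted 0.0144) and between 4.32 and 4.60 at 48 h (0.0476, adjusted 0.102). Of these markers 5 fell and 8 did not pass at 24 h, and 3 rose and 3 fell at 48 h. The pericyte gene Rgs5 fell by 3.07 and by 3.12 on the log2 scale, whereas Pdgfrb (-0.06 and -0.08), Cspg4 (-0.04 and 0.03) and Des (0.09 and 0.02) of the same list did not pass. The collagen gene Col3a1 fell by 1.10 on the log2 scale at 24 h and was higher than at 0 h, by 1.71, at 48 h. Timp1 was also higher at 48 h, as was Mmp14 by probe set 1448383_at but not by its other probe sets. Lum was under the table's median on all arrays. The part of these cells was not tested either.

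Macrophage and dendritic markers had a mean of 5.50 to 6.11 at 0 h, 4.90 to 5.39 at 24 h (exact permutation p = 0.00433, adjusted 0.0144) and 5.19 to 5.65 at 48 h (0.0346, adjusted 0.0799), and 7 of the 13 fell and 1, Cd68, rose at 24 h. Acinar markers ranged widely, 5.70 to 8.50 at 0 h, 4.20 to 7.19 at 24 h and 3.97 to 5.60 at 48 h (48 h against 0 h, exact permutation p = 0.00433, adjusted 0.0144). Endocrine markers themselves fell from 11.41 to 11.71 on the 0 h arrays to 10.87 to 11.29 at 24 h and 10.95 to 11.36 at 48 h (exact permutation p = 0.00433, adjusted 0.0144, both times), with 6 of 10 lower at 24 h and 4 at 48 h, and Ins2, Gcg, Iapp and Chga not passing. Ins2 read at the top of the table's range, where a change may not show. The mean levels of neutrophil, lymphocyte, mesothelial and Schwann cell markers did not pass in any of the 3 comparisons. Duct markers did not pass against 0 h. The rises of Tfpi2, Plat and Adamts1 at 24 h stood beside lower means of the endothelial, pericyte and fibroblast, macrophage and endocrine markers, and their cell of origin was not tested.

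**Figure D4:**
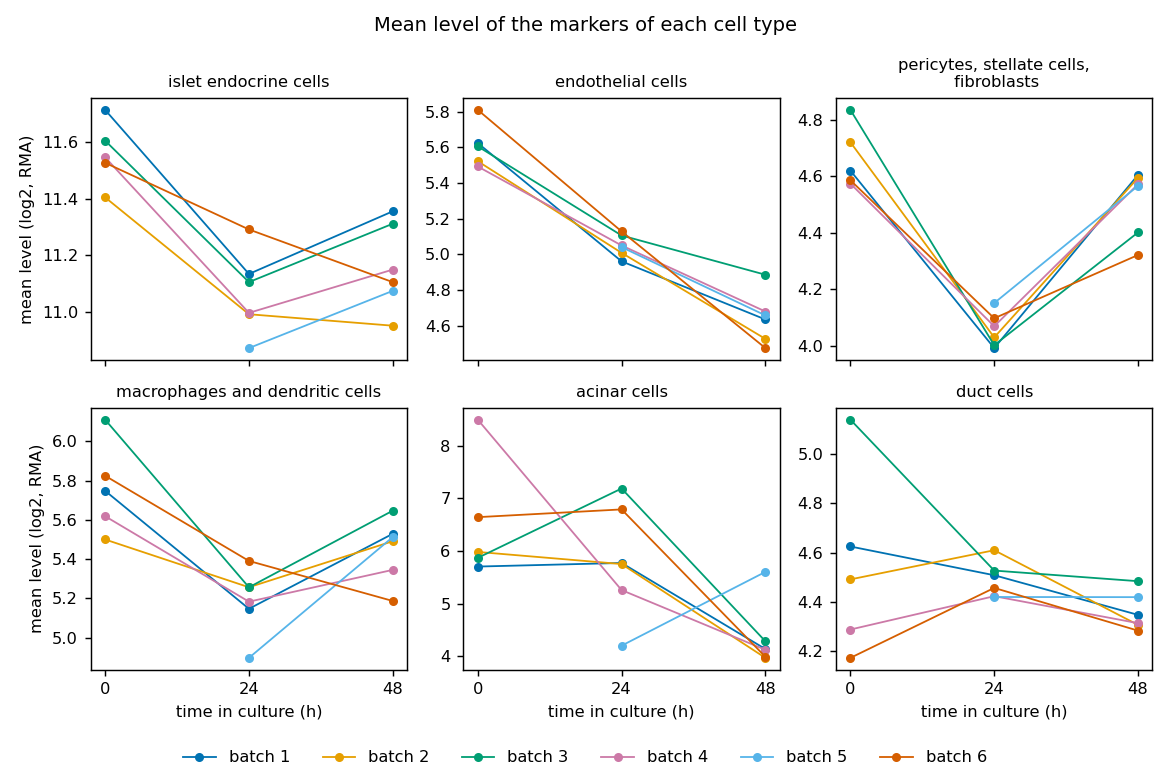
Mean level (log2, RMA) of the markers of 6 cell types on each array against hours in culture, with a scale of its own for each panel. Points are arrays and lines join the portions of 1 batch. Endothelial markers step down at both times, and markers of pericytes, stellate cells and fibroblasts are lowest at 24 h.

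Related genes were counted beside the members. Beyond the 9 members, 6 lists of the plasminogen system, Kunitz inhibitors and the start of coagulation, matrix metalloproteases, their inhibitors, and the ADAMTS and ADAM families held 95 genes. Of these 82 were measured and 42 lay above the table's median. At 24 h 3 rose and 5 fell, at 48 h 8 rose and 5 fell, and 1 rose between the later times, against 12.1%, 11.7% and 0.759% of all genes in either direction. Nothing particular to these lists can be read from the counts. When arrays were centred on the islet endocrine markers, which moved the median difference of all probe sets from -0.01 to 0.55 at 24 h and to 0.38 at 48 h, the split became 76 up and 1 down at 24 h and 66 up and 4 down at 48 h. The members' split became 8 up and 1 down at 24 h and likewise at 48 h. No difference from 0 h of a member, and no passing difference of a named related gene, changed sign. Hormone, control and marker genes were not followed through this scaling.

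In the plasminogen system 1 of 14 other genes fell at each time. This was S100a10, whose product forms a plasminogen-binding complex with annexin A2 at the cell surface, by 0.90 (adjusted p = 0.00125) and 0.98 (adjusted p = 0.000718) on the log2 scale. Its 3 probe sets ranged from -0.90 to -0.17 at 24 h.

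Of 13 genes of Kunitz inhibitors and the start of coagulation, Procr rose at both times. Its 0 h arrays ran from 3.75 to 5.89 and the 24 h arrays from 6.43 to 7.07, a 4.52-fold rise (2.18 ± 0.27 SE, adjusted p = 2.27e-05), and at 48 h it was 2.63-fold higher (adjusted p = 0.00236). F2r, the thrombin receptor, fell by 1.25 (adjusted p = 2.16e-06) at 24 h and fell by 1.53 (adjusted p = 2.31e-07) at 48 h on the log2 scale. The other F2r probe set differed by -0.84 and -0.95. Thbd, which encodes thrombomodulin, the partner of thrombin in activating protein C, was at least 1.54-fold lower at 24 h (adjusted p = 0.0107) and at least 1.63-fold lower at 48 h (adjusted p = 0.000730), when 5 of 6 arrays lay under the table's median. F2rl3, another thrombin receptor, passed as higher at 48 h (adjusted p = 0.0267, but 0.0863 in the blocked fit) with means of 2.68 and 2.97, both under the table's median, so that no fold can be read. It did not pass without 0 h replicate 2, 3 or 4 or without 48 h replicate 2, 3 or 5 (adjusted p from 0.0504 to 0.0782). It was named after its values were seen.

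Of 15 other matrix metalloproteases none passed at 24 h in limma, with 0 at an unadjusted p under 0.05. At 48 h Mmp12 (adjusted p = 0.0138) and Mmp13 (adjusted p = 0.0286, but 0.0603 in the blocked fit) passed as higher than at 0 h, and Mmp12 as higher than at 24 h (adjusted p = 0.0225). The last of these did not pass without 24 h replicate 1 or 2 or without 48 h replicate 2 or 4 (adjusted p from 0.0544 to 0.0601), and Mmp13 did not without 0 h replicate 1, 3 or 4 or without 48 h replicate 6 (adjusted p from 0.0533 to 0.0741). The means, 2.57, 2.49 and 2.92 for Mmp12 and 2.28, 2.51 and 3.00 for Mmp13, were under the table's median at every time, so that no fold can be read. Both genes were named after their values were seen. Mmp12 is the macrophage elastase and Mmp13 a collagenase.

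Of the 5 other metalloprotease inhibitors, Reck and Timp2 fell at both times. Reck, a membrane-anchored inhibitor of metalloproteases including Mmp14, went from between 7.79 and 8.08 at 0 h to between 6.81 and 7.30 at 24 h (-0.81, adjusted p = 0.000454) and differed by -0.86 at 48 h (adjusted p = 0.000345). Timp2, the inhibitor that also brings the Mmp2 proenzyme to Mmp14, fell by 0.68 (adjusted p = 5.05e-05) at 24 h and by 0.43 (adjusted p = 0.00452) at 48 h on the log2 scale, and its 6 probe sets ranged from -1.37 to 0.00 at 24 h. The 24 h falls of Timp2, Reck, S100a10 and Thbd, and the 48 h fall of Timp2, did not pass with arrays centred on the islet markers (adjusted p from 0.0688 to 0.704).

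In the protease families nearest to Adamts1, Adamts4 rose in the ADAMTS list of 20, and Adam8, Adam9 and Adam10 in the ADAM list of 15. Adamts4, which like Adamts1 cuts aggrecan, rose by 1.03 (adjusted p = 0.000910) at 24 h and 1.32 (adjusted p = 0.000106) at 48 h, from a 0 h mean of 3.75. The other Adamts4 probe set differed by 0.64 and 0.63. Adam8, a protease of leukocytes and activated cells, rose from 0 h arrays that were all under the table's median, by at least 1.17-fold at 24 h (adjusted p = 0.0157, but 0.0561 in the blocked fit) and at least 1.66-fold at 48 h (adjusted p = 6.43e-05). Adam9 was higher at 48 h by 0.51 (adjusted p = 0.00117). Adam10, the sheddase of Notch and many membrane proteins, was higher at 48 h by 0.38 (adjusted p = 0.0325), which did not pass in 9 of 31 alternatives. Its 4 probe sets ranged from 0.01 to 0.82 at 48 h. The control gene Actb differed by -0.29 (adjusted p = 0.180) at 24 h.

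Among the members, profiles over the 17 arrays were most alike for Tfpi2 and Adamts1 (Pearson r = 0.917), followed by Tfpi2 and Plat (0.893), and Plat and Timp3 ran opposite (-0.882). These values share the time groups and the arrays, and describe the pattern only. After each time's mean was subtracted, the correlations were 0.443, 0.311 and 0.308. Plau and Mmp2, both under the table's median, had the highest remaining value, 0.714.

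Over 11915 genes above the table's median, the profile most like that of Timp3 was that of Btnl9 (r = 0.984), with mean levels of 7.59, 3.91 and 3.54, followed by Epas1 (0.980), with 9.20, 6.90 and 6.64. For Tfpi2 it was Psmb8 (0.968), an immunoproteasome subunit at 6.24, 7.61 and 7.24, then Gbp8 (0.965), a guanylate-binding protein at 2.65, 4.46 and 3.89. Plat was closest to Cfl2 (0.943) and Nhp2 (0.924), Adamts1 to Rgs4 (0.939) and Ednrb (0.934), and Plaur to Pgd (0.924) and Arhgap8 (0.906). Timp1 was closest to Gm10941 (0.901) and Farp1 (0.889), and Mmp14 to Hscb (0.875) and Fstl1 (0.873). For Plau (Gm26588, 0.829) and Mmp2 (Haus8, 0.761) the values describe signal near background.

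With the mean of each time subtracted, the closest profiles were mostly others. Pgd stayed first for Plaur (0.837), and Btnl9, the closest to Timp3 before, was first for Plat (0.874). Timp3 was then closest to Cdh2 (0.806), Tfpi2 to Tbc1d7 (0.895), Adamts1 to Zfp963 (0.856), Mmp14 to Chd8 (0.870) and Timp1 to Kdr (0.851).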

How the data were processed

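RNA of mouse islets was amplified, labelled with biotin and hybridised to the Affymetrix whole-genome mouse array, per the labels. The deposited values are log2 expression levels that the authors made with RMA, per the submitters' processing notes, which name no version in the sources used here. This method removes background, equalises the distributions of the arrays and summarises probes, which removes shifts shared by most transcripts and compresses low values. The log base was inferred from the range, 1.55 to 13.81. Of 45101 probe sets 64 controls were left out. The annotation gave 34945 probe sets 1 symbol, 932 several and 9160 none here, and 34741 had an Entrez ID in the RefSeq table, with 0 symbols updated.

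One mean per time was fitted with limma 3.58.1 in R 4.3.3 (lmFit, eBayes), without a filter, and p-values were adjusted over the 45037 probe sets in each of 3 comparisons. The code was tested on simulated data. Errors are SE unless given as SD. Marker means were compared by exact permutation of the arrays between times, which did not use the pairing by batch. Floors of folds are the table's median on each array at or under it. Other genes named are, in each list, comparison and direction, up to 3 with the largest passing difference and a mean above the table's median in the higher group, plus the exceptions marked in the text, the hormone genes and Actb. For likeness, the closest 1 or 2 genes are given. The members and lists were chosen with earlier results of these data known.

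Batches pair the arrays by the study's design text. Over 16 pairs of the same batch, deviations from the time means correlated at a median of 0.00545 (-0.159 to 0.274, above 0.1 in 4), against -0.00978 in 80 other pairs, and the consensus correlation was 0.0183. Alternatives were a fixed or a random batch effect, array weights, fitting complete batches alone, leaving out 0 h replicate 3 and 24 h replicate 5, a robust trended variance prior, median, quantile or islet marker scaling, a filter on level, no _x_at or _s_at probe sets, only the arrays compared, other probe set summaries, a second floor and leaving out each array.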

Additional observations from a re-analysis of the deposited data

Results flagged for a closer look

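Of 81 groups of arrays tested for a single value far from the rest, 7 held one, and chance flags about 1 in 20. Plaur in 48 h replicate 2 was the lowest of its time at 4.41, with the others at 4.64 to 4.78. Mmp2 probe set 1439364_a_at in 24 h replicate 3 was lowest at 3.10, against 3.34 to 3.48, all under the table's median. Among the Timp3 probe sets, 1449334_at was highest in 0 h replicate 4 at 5.52, against 4.65 to 4.77, and 1419088_at was highest in 0 h replicate 1 at 3.18, against 2.62 to 2.75. The mean of the acinar markers in 48 h replicate 5 was 5.60, with the other arrays of that time at 3.97 to 4.28. The mean of the Schwann cell markers was lowest in 0 h replicate 1 at 3.56, against 3.63 to 3.65, and highest in 48 h replicate 5 at 3.82, against 3.53 to 3.61.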

How the results depend on the processing

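No difference of a member or named related gene that passed changed sign under an alternative. Between 48 and 24 h, the differences of Mmp14 (0.25, down to -0.01 with the mean of its probe sets) and Mmp2 (-0.02, up to 0.02 without 1 array) did so without passing. Of 11 member differences that passed, 10 passed under every alternative run and 1, that of Mmp14 at 48 h, did not. Of 16 that did not pass, 6 never did and 10 passed under at least 1 alternative. Of 22 passing differences of other named genes, 12 passed under every alternative that could be run for them. With the batch as a replicate block, 3640, 3572 and 224 probe sets passed at 24 h and at 48 h against 0 h and between the later times, in that order throughout, against 3862, 3815 and 200, and 6, 6 and 0 members. The block changed the calls of Mmp14 and Adam8 at 24 h and of F2rl3 and Mmp13 at 48 h. It changed no other call of a member and no other passing call of a named related gene. For 48 h against 24 h, array weights gave 321 probe sets and 1 member, and leaving out 0 h replicate 3 and 24 h replicate 5 gave 324 probe sets and 2 of the other pathway genes. The mean of all probe sets of a gene also gave 2, and a filter at the table's median gave 0, since Mmp12 lies under it. Without _x_at and _s_at probe sets, 5 other pathway genes of 77 passed at 24 h. Centred on the islet endocrine markers, 40857, 35437 and 2559 probe sets passed, with 9, 9 and 3 members and 77, 70 and 4 other pathway genes. The 3 members and 4 other genes that passed between the later times were all lower at 48 h. Leaving out each array in turn gave 3041 to 3869, 2862 to 4221 and 102 to 263 probe sets, 5 to 6, 6 to 6 and 0 to 1 members, and 8 to 9, 10 to 13 and 0 to 2 other pathway genes. The cause of these differences was not tested. With the 95th percentile of 78 olfactory and vomeronasal receptor probe sets, 3.59, as floor, the Tfpi2 bounds were 5.64-fold and 2.95-fold. Signal near the table's median limits what can be said of Plau, Mmp2 and Mmp14. Timp1 at 0 h, at 3.67 to 4.05, was above both floors but close to them, which limits its fold too.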
